A study of Mus musculus with 8 samples.

Results

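The connexins are the subunits of gap junction channels, and 6 members of the family (Gja1, Gja4, Gja5, Gjb1, Gjb2 and Gjc1) were followed here across the cells of the mouse liver. They were chosen by name, as 6 of the 46517 genes in the count table and 6 of the 20 connexin genes in it. These 6 genes held 90.6% of all connexin counts (349016 of 385233). The study profiled single cells from livers of adult male and female mice of the C57BL6/J background by Smart-seq2, a plate-based protocol that reads whole transcripts. Cells were sorted on antibodies against EPCAM (cholangiocytes), on CD31 and VE-cadherin antibodies or a Cldn5-GFP transgene (endothelium), on CD68 antibodies (macrophages), and on Pdgfrb-GFP, Pdgfra-H2bGFP or Acta2-GFP reporters or PDGFRα antibodies (mesenchyme), whereas hepatocytes were taken as living cells without selection. The reporter transgenes were heterozygous. Because each reporter marks only the cells that use its promoter, the numbers of cells follow the sort and not the tissue.

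A connexin protein spans the membrane, and a ring of connexins forms a hemichannel that docks with one on the neighbouring cell, so that ions and small metabolites pass between the cells. In the liver, hepatocytes couple mainly through the products of Gjb1 and Gjb2, while endothelium and smooth muscle of vessels use members of the Gja and Gjc groups. Pannexins form related membrane channels, and scaffold proteins such as the zonula occludens proteins and the cadherins hold the junctional region together.

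Each of the 4 cell classes (endothelial, mesenchymal, epithelial and immune) was split by sex into a male and a female pool, and these 8 pools were the replicates. The labels do not name the mice within a pool, so p-values measure only the spread between pools, and sex and sorting plate cannot be told apart from replicate. Endothelial cells numbered 655 male and 451 female, mesenchymal cells 998 and 339, epithelial cells 358 and 39, and immune cells 255 and 396. A cell had 47063 to 1128421 counts (median 228708), and no cell name occurred in more than 1 library. All female mesenchymal cells came from 1 plate. The marker lists followed the class labels: summed endothelial markers (Pecam1, Cdh5, Kdr, Tie1, Ptprb and Stab2) reached 9681 CPM, that is counts of the gene per 1e6 counts, in the endothelial class against 71.6 to 824 in the others, and summed mesenchymal markers reached 5336 CPM in their own class against at most 63.1. Among the immune cells, 26 cells that the authors annotated "Cont" (cluster #i9c) held 4258 CPM of the endothelial markers, and their connexin values are given separately. Hepatocyte markers were present everywhere, with Alb at 170 to 281 CPM outside the epithelial class. Cyp2e1 was at 477 CPM in the mesenchymal class beside 702 CPM in the epithelial class.

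At the level of the classes, Gja4 and Gja5 led in the endothelium, Gjb1 and Gjb2 in the epithelium, and Gjc1 in the mesenchyme, while Gja1 exceeded 40 CPM in the pools of all classes but the immune one. Gja4 stood at 449 (male) and 524 CPM (female) in the endothelium, at 179 and 383 CPM in the mesenchymal pools, and below 4 CPM in the epithelial and immune pools. Gja1 stood at 161 and 119 CPM in the endothelial, 116 and 54.1 CPM in the epithelial, 49.4 and 41.1 CPM in the mesenchymal and 5.75 and 2.75 CPM in the immune male and female pools. In both genes the pools of neighbouring classes in this order did not overlap. Gja5 reached 46.3 and 95.1 CPM in the endothelial pools and stayed between 1.56 and 3.53 CPM in the other 6 pools, whose classes overlapped with each other. Gjb1 reached 247 and 242 CPM in the epithelial pools against 0.832 to 2.83 CPM elsewhere. Gjb2 differed between the epithelial pools, at 51.1 CPM (male) and 1.09 CPM (female), and the latter holds 37 cholangiocytes and only 2 hepatocytes. Gjc1 reached 28.5 and 23.4 CPM in the mesenchymal pools, 2.07 and 11.8 CPM in the endothelial pools and at most 1.69 CPM in the others. In the endothelium 56.4% of the Gjc1 counts came from 1 female cell of #e2, a value that enters the class tests of Gjc1.

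**Figure D1:**
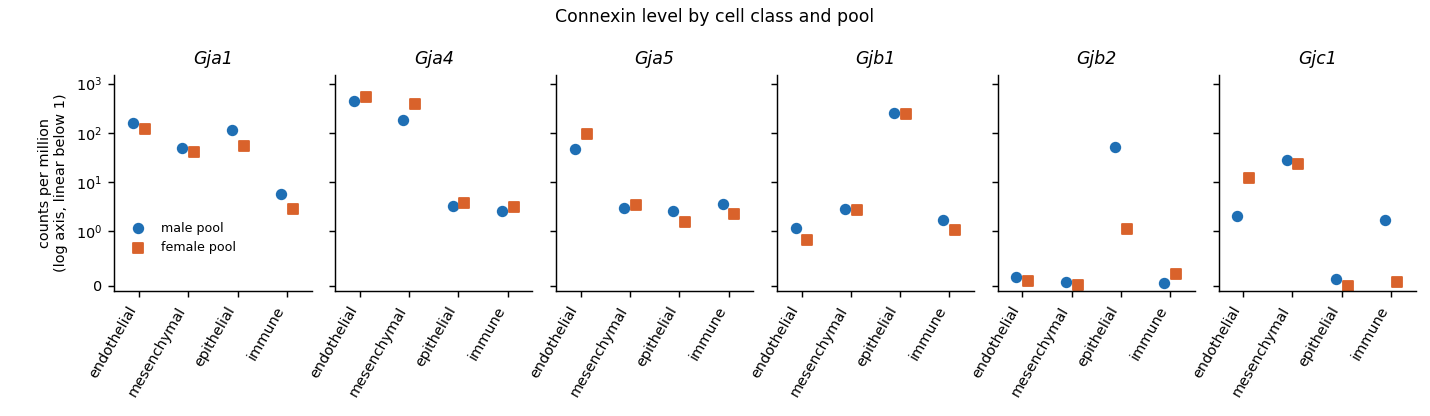
CPM of each connexin (log axis, linear below 1) in the male (circles) and female (squares) pool of the 4 classes. Gja4 sits above 100 CPM in the endothelial and mesenchymal pools, and the epithelial Gjb2 level is carried by the male pool.

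Compared with the mean of the other 3 classes, endothelial cells had higher Gja4 (log2 fold change 5.05 ± 0.32 SE, adjusted p = 0.000356), Gja5 (4.65 ± 0.51, adjusted p = 0.00223) and Gja1 (2.37 ± 0.43, adjusted p = 0.0151), and lower Gjb1 (-3.38 ± 0.47, adjusted p = 0.00505). The Gjb1 difference was carried mainly by the epithelial class in the mean (247 CPM). Gjb1 stood at 1.03 CPM in the endothelial, 1.30 CPM in the immune and 2.80 CPM in the mesenchymal class. A gene was called at an adjusted p under 0.05 in edgeR's quasi-likelihood test (Benjamini-Hochberg over all genes tested) and a change of 1 or more on the log2 scale in either direction. With 4 of 6 members called, the background was 8.28% of 24046 genes called in either direction (5.33% higher, 2.96% lower). DESeq2 called 4497 of 24046 genes. Gjc1 (2.35 ± 1.08, adjusted p = 0.245) and Gjb2 (-2.10, adjusted p = 0.488) did not pass. The median log2 fold change of the members was 2.36, beside 0.04 over all genes. Among the other genes of the junction, 1 of 7 tested connexins, 0 of 2 tested pannexins (2 at an unadjusted p under 0.05, 1 called by DESeq2) and 4 of 12 partner genes were called, of which Cdh5, the cadherin of endothelial junctions, was higher by 4.89, Tjp1 higher by 3.02 and Tjp3 lower (-3.65) on the log2 scale. Gja1 and Gjb1 depended on each of the endothelial pools: without the male pool their adjusted p became 0.132 and 0.0543, and without the female pool 0.0739 and 0.0712.

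Mesenchymal cells had higher Gja4 (4.07 ± 0.32, adjusted p = 0.000337) and Gjc1 (5.01 ± 1.09, adjusted p = 0.0208), 2 of 6 members where 11.8% of all genes were called (9.47% higher, 2.33% lower). Gja1 (0.34 ± 0.46), Gja5 (-1.22 ± 0.59), Gjb1 (-1.28 ± 0.40) and Gjb2 (-4.32 ± 1.72) did not pass in edgeR. DESeq2 called Gjb1 and Gjb2 of these (adjusted p = 0.00544 and 0.00656), where it called 4292 of 24046 genes. The members' median was -0.44 beside 0.02 over all genes. The call on Gjc1 was lost without the male endothelial pool (adjusted p = 0.0539), the male or female epithelial pool (0.0615 and 0.0613) or the male or female mesenchymal pool (0.0749 and 0.0537), at log2 fold changes between 4.76 and 7.14. In the same comparison 3 of 7 other connexins were higher, among them Gjd3 (11.03) and Gjb5 (10.75). Fitted values of genes with almost no counts in a group depend on the prior count of the fit and are no bounds. None of 2 pannexins was called by edgeR or DESeq2, although 1 had an unadjusted p under 0.05. Among the 12 partners 5 were higher and 4 lower.

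Epithelial cells had higher Gjb1 (7.22 ± 0.37, adjusted p = 0.000197) and Gjb2 (8.23 ± 1.31, adjusted p = 0.00587) and lower Gja4 (-4.46 ± 0.47, adjusted p = 0.000973). These 3 of 6 calls stand beside 12.4% of all genes called, 8.37% higher and 4.05% lower, and the members' median of -0.32 beside -0.27 over all genes. Gja1 (1.46 ± 0.44, adjusted p = 0.0697), Gja5 (-2.10 ± 0.64, adjusted p = 0.0712) and Gjc1 (-5.91 ± 1.76, adjusted p = 0.0666) missed the threshold in edgeR. DESeq2 called all 6 members, where it called 5601 of 24046 genes (3002 higher, 2599 lower). With the pool number (sex) as a block in edgeR, Gja1 was called (1.38, adjusted p = 0.04). The Gjb2 call rested on the male epithelial pool, without which the difference was 3.48 (adjusted p = 0.235). Of 12 partners 4 were higher and 1 lower, led by Cdh1, the cadherin of epithelial junctions (9.17), Ocln (7.78) and Tjp3 (6.88). Of the 7 other connexins 1 was lower, and of 2 pannexins none was called (1 at an unadjusted p under 0.05, none by DESeq2).

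Immune cells had lower Gja4 (-4.66 ± 0.47, adjusted p = 0.000747), Gja1 (-4.17 ± 0.62, adjusted p = 0.00415) and Gjb1 (-2.56 ± 0.44, adjusted p = 0.00776), 3 of 6 members where 13.2% of all genes were called (7.92% higher, 5.25% lower). The Gjb1 difference was carried mainly by the epithelial class in the mean (247 CPM). Gjb1 stood at 1.30 CPM in the immune class, 1.03 CPM in the endothelial class, whose pools overlap with it, and 2.80 CPM in the mesenchymal class. No member was higher, and the members' median was -2.18 beside 0.09 over all genes. Gja5, Gjb2 and Gjc1 gave differences of -1.34, -1.81 and -1.46 that did not pass in edgeR. DESeq2 called Gja5 as well (adjusted p = 0.034), where it called 5655 of 24046 genes. Of the partners 5 of 12 were lower, among them the caveolar coat protein Cav1 (-6.02), and 1 was higher, Cdh5 (3.66, named after its value was seen). There was 1 call among 7 other connexins, and none of 2 pannexins was called (1 at an unadjusted p under 0.05, none by DESeq2).

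**Figure D2:**
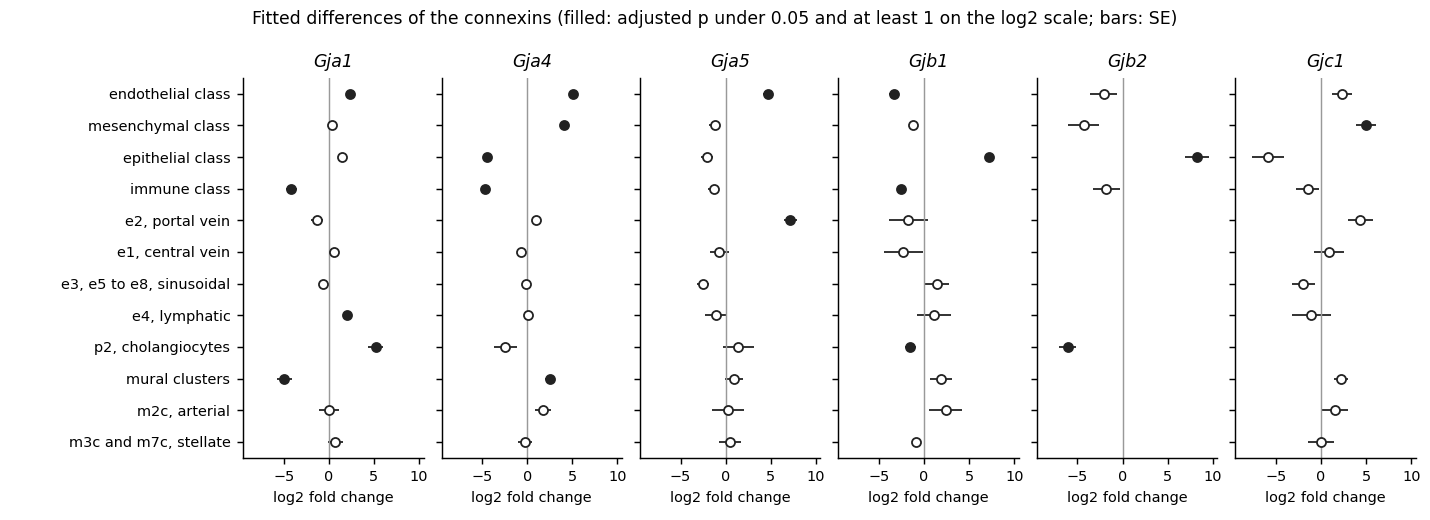
Log2 fold changes of the 6 connexins (x axis) in the 12 comparisons (y axis, the class or cluster named against the mean of the others), with SE as bars where it was at most 4. Filled points passed the test, and the widest called differences are Gjb2 (8.23) and Gjb1 (7.22) in the epithelial class and Gja5 in the portal vein cluster (7.18).

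Within the classes the authors' clusters resolve cell types along the vessels and the lobule. They were computed from the same transcriptomes, so a test between clusters is partly built in. Endothelial clusters span the portal vein (#e2), sinusoids (#e3, #e5, #e8 and, as the last sinusoid, #e6), the central vein (#e1 and #e7) and lymphatics (#e4). The lymphatic label matched its markers, with Prox1 at 393 CPM and Mmrn1 at 3900 CPM in #e4 against at most 7.94 and 2.66 CPM in the other endothelial clusters.

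Gja5, which encodes a connexin known from arterial endothelium and the cardiac conduction system, was concentrated in #e2. The gene lies on chr3:96904693-97077416 (GRCm38, plus strand). Male cells of #e2 held 451 CPM and female cells 533 CPM. In the other 7 multilevel endothelial clusters the level over both pools stayed below 6 CPM. The pools of #e2 therefore did not overlap with those of any other cluster, and the difference was 7.18 ± 0.77 (edgeR, adjusted p = 0.000102). It was the 1 call among 5 members tested, where 1.93% of 18321 genes were called, 1.85% higher and 0.0819% lower (354 genes, and 211 with the pool as a block). Within the pools the log2(CPM + 1) of #e2 exceeded the mean of the other clusters by 7.05 in each sex.

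A high-resolution setting of the clustering splits #e2 into 114 portal vein cells (#e2c) and 14 cells of the peribiliary vasculature (#e5c), the capillary bed around bile ducts. Gja5 reached 489 and 600 CPM in the male and female cells of #e2c, and 59 of 114 cells (51.8%, exact binomial 95% interval 42.2 to 61.2%) held at least 20 counts, the detection limit in the authors' filter on genes. In #e5c it stood at 90.9 and 146 CPM, but 74.4% of its counts came from 1 cell and 2 of 14 cells reached 20 counts. Across 6 plates with male #e2 cells the level ran from 131 to 1687 CPM, and both plates with female cells (499 and 869 CPM) lay in that range. The range over plates was thus wider than that over pools, and the lowest plate was above the level of each of the other 7 multilevel endothelial clusters.

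Gja4, whose product joins endothelial cells to each other and to smooth muscle, was high in all endothelial clusters. The gene lies on chr4:127311421-127314039 (GRCm38, minus strand). From the highest to the lowest, the clusters held 866 CPM (#e2, 814 male and 910 female), 696 CPM (#e6, 706 and 691), 505 CPM (#e4), 420 CPM (#e3), 377 CPM (#e5), 375 CPM (#e8), 323 CPM (#e7) and 316 CPM (#e1). The pools of #e2 and #e6, and of #e6 and #e4, did not overlap, whereas those of each later pair of neighbours did. Gja4 was called in none of the endothelial comparisons: #e2 differed by 0.95 ± 0.29 (adjusted p = 0.12), #e1 by -0.70 ± 0.33 (adjusted p = 0.509), the sinusoidal group by -0.16 ± 0.21 (adjusted p = 0.904) and #e4 by 0.09 ± 0.31 (adjusted p = 0.998). The cluster #e6, annotated as the last sinusoid, had the largest share of cells with at least 20 Gja4 counts (80 of 112, 71.4%, interval 62.1 to 79.6%).

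Gja1, the most widely used connexin of the body, had another order. The gene lies on chr10:56377330-56402513 (GRCm38, plus strand). It was highest in the lymphatic cluster #e4 (331 male, 379 female, 364 CPM together), followed by #e3 (239 CPM), #e6 (207 CPM), #e1 (142 CPM), #e8 (95.5 CPM), #e5 (69.1 CPM), #e2 (49.4 CPM) and #e7 (17.5 CPM). The pools of #e4, #e3, #e6 and #e1 did not overlap from one to the next, those of #e1, #e8, #e5 and #e2 did, and those of #e2 and #e7 did not. Within #e2 the portal vein cells of #e2c held only 15.2 and 5.80 CPM, in contrast to 196 and 398 CPM in the male and female cells of #e5c. The 14 cells of #e5c held 1420 of the 1736 Gja1 counts of #e2, 39.1% of them in 1 cell. In the test, #e4 exceeded the mean of the other endothelial clusters by 2.05 ± 0.48 (edgeR, adjusted p = 0.0145), the 1 call among 5 members where 6.80% of genes were called (4.92% higher, 1.88% lower; 1245 genes, and 796 with the pool as a block), beside a median of -0.42 over all genes that moved to 0.01 with RLE size factors, under which the share of higher genes among those called was 83.7% in place of 72.4%. The cluster holds 22 cells, and the call was lost without its male (adjusted p = 0.0742) or female sum (adjusted p = 0.0987) and with sums per plate (adjusted p = 0.868).

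With #e2c in place of #e2, the #e5c cells joined the other clusters, a choice made after the levels in #e5c were seen. The Gja1 difference of #e2c was then -3.72, but a lower value was built in by this choice, so it is no test of Gja1. Gja5 stayed higher (6.64, edgeR adjusted p = 0.000177). With #e2 as a whole the Gja1 difference was -1.30 ± 0.63 (adjusted p = 0.544). The Gja4 difference of #e2c was 0.83 (adjusted p = 0.939).

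**Figure D3:**
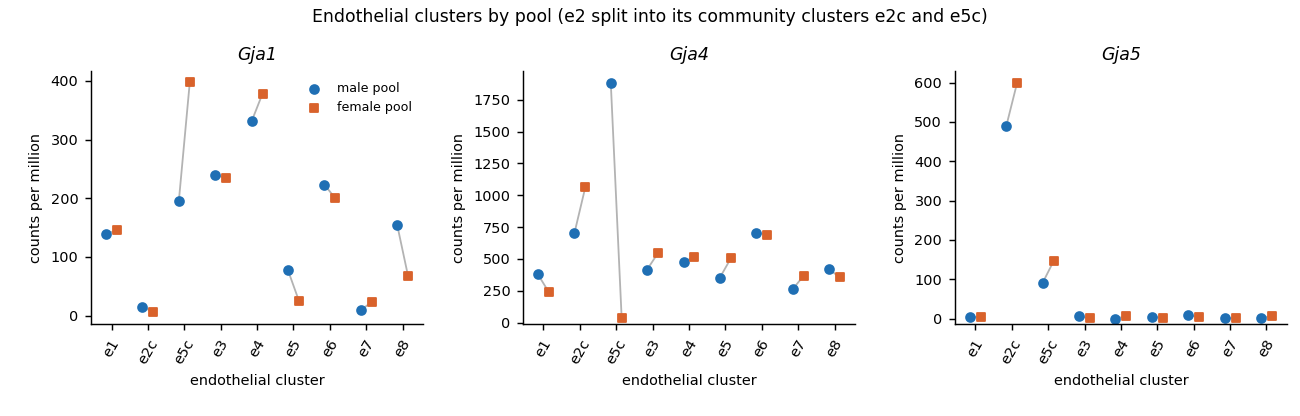
CPM of Gja1, Gja4 and Gja5 (y axes, linear) in the endothelial clusters (x axis), male pool as circles and female pool as squares, joined by a line. Gja5 stands out in #e2c (489 and 600 CPM), where Gja1 is at 15.2 and 5.80 CPM, and the 14 cells of #e5c differ widely between pools in Gja1 and Gja4.

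In the central vein cluster #e1 none of 5 members was called by edgeR or DESeq2, with 1 at an unadjusted p under 0.05, where 1.41% of genes were called (1.32% higher, 0.0873% lower). The sinusoidal group was compared with #e1, #e2 and #e4, with #e7 on the sinusoidal side although its cells are annotated as central vein. Here edgeR called none of 5, with 1 at an unadjusted p under 0.05, where it called 1.92% of genes (0.759% higher, 1.16% lower). DESeq2 called 1 of 5, where it called 1446 of 18321 genes (730 higher, 716 lower). That gene was Gja5 (-2.51 ± 0.69, edgeR adjusted p = 0.0796), a difference carried by #e2 (496 CPM). Its levels in #e1 (3.93 CPM) and #e4 (4.24 CPM) lay within those of the sinusoidal group (1.13 to 5.68 CPM). With #e7 on the other side the Gja5 difference was -1.24 (adjusted p = 0.367), and that of Gja1 turned from -0.61 to 0.59 (adjusted p = 0.441). Among the other genes of the junction, Ocln was higher in #e2 (7.43), and the sinusoidal group had lower Cav1 (-2.74). In #e4 Ccn3 (6.44) and Cav1 (3.32) were higher. In all, 1 of 3 other connexins was called in #e1 and 1, 2 and 3 of 11 partners in #e2, the sinusoidal group and #e4.

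The upstream sequences of the 3 members called higher in the endothelium are printed because these genes share a cell class and part from each other along the vessels. They are the 250 bases before the RefSeq start on GRCm38.p6, read 5′ to 3′ on the strand of the gene, with motif matches on either strand in capitals. Gja1 is chr10:56377050-56377299 (plus), Gja4 is chr4:127314040-127314289 (minus) and Gja5 is chr3:97032152-97032401 (plus). The Gja1 window holds an AP-1 motif (TGAGTCA) 19 bases before the start, an E box (CANNTG) at 23 that runs into it, and a GATA motif (AGATAA, on the other strand) at 135. The Gja4 and Gja5 windows each hold 1 GC box (GGGCGG), at 79 and 17 bases.
Gja1: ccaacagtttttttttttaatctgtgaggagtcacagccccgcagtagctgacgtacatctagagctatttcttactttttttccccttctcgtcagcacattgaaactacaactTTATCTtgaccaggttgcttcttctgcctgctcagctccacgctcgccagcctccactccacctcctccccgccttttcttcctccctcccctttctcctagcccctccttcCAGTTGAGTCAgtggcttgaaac
Gja4: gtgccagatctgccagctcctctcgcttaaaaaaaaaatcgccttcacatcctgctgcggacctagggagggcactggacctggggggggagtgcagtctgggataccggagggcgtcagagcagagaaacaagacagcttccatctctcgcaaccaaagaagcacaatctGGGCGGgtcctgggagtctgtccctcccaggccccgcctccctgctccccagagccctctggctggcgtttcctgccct
Gja5: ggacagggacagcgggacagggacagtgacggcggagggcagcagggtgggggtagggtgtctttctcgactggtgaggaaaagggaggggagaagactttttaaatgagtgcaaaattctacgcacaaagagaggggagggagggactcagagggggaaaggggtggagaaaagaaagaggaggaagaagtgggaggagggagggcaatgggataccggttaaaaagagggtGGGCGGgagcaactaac
Of 32851 windows of the same length, 4.46% held the AP-1 motif, 9.99% the GATA motif, 66.2% an E box and 32.7% a GC box. None of the 3 windows held the ETS core (CCGGAA) or the forkhead motif (GTAAACA), of which the latter was found in 3.17% of windows. A match describes these letters and not a bound site.

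In the mesenchyme, Gja4 and Gjc1 were highest in arterial and portal vein smooth muscle clusters and Gja1 in Wt1-annotated fibroblasts, mesothelial cells and, mainly through 1 cell, #m6c. Gja4 stood at 603 and 979 CPM in the male and female arterial smooth muscle cells (#m2c), 712 and 1172 CPM in portal vein smooth muscle cells (#m8c), 183.6 and 141.6 CPM in venous smooth muscle cells (#m9c), and 183 and 20.01 CPM in #m15c, the smooth muscle cells annotated elaSMC. Every pool of the first pair of clusters was above every pool of the second pair. The share of cells with at least 20 counts was 63.6% in #m2c (150 of 236, interval 57.1 to 69.7%) and 63.9% in #m8c (46 of 72), against 25.6% in #m9c and 3.03% in #m15c. Outside the mural clusters Gja4 was highest in portal fibroblast clusters, at 297 and 484 CPM in the 9 cells of #m14c and at 202 CPM in the male cells of #m13c.

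Gjc1, whose product couples smooth muscle cells, lies on chr11:102799579-102819700 (GRCm38, minus strand). It held 116 and 57.9 CPM in #m2c, 49.9 and 101 CPM in #m8c, 41.3 and 1.72 CPM in #m9c and 11.6 and 21.1 CPM in #m15c. Its pools overlapped between #m2c and #m8c, and 20.3% and 20.8% of their cells held at least 20 counts. Gja1 was low in all 4 mural clusters, at 1.13 to 2.09 CPM. At least 1 count was found in 61 of 236 cells of #m2c (25.8%), 16 of 72 of #m8c, 4 of 39 of #m9c and 9 of 33 of #m15c, and none of these cells reached 20 counts (upper limits of the exact 95% intervals 1.55%, 4.99%, 9.03% and 10.6%).

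Tested against the mean of the other mesenchymal community clusters, the mural clusters had lower Gja1 (-4.95 ± 0.81, edgeR adjusted p = 0.000108) and higher Gja4 (2.50 ± 0.49, adjusted p = 0.00105), 2 of 5 members where 3.35% of 21329 genes were called (2.08% higher, 1.27% lower). Gjc1 (2.25 ± 0.79, adjusted p = 0.135), Gjb1 (1.83) and Gja5 (0.91) did not pass in edgeR. Gjc1 was called by DESeq2 (adjusted p = 0.0273) and with the pool as a block in edgeR (2.91, adjusted p = 0.0473). Over all genes DESeq2 called 1633 and the blocked fit 623 of 21329. The members' median was 1.83 beside 0.09 over all genes. With sums per plate in place of pools, the Gja4 call was lost (adjusted p = 0.12). Of 11 partners 3 were higher, Ccn3 (6.75), Cav1 (2.77) and Vcl (1.56), and of 6 other connexins and 2 pannexins none was called by edgeR or at an unadjusted p under 0.05, while DESeq2 called 1 connexin.

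Arterial smooth muscle (#m2c) against the other 3 mural clusters gave 0 of 5 members called by edgeR, by DESeq2 or at an unadjusted p under 0.05, where 1.30% of genes were called (0.736% higher, 0.567% lower). The Gja4 difference was 1.70 ± 0.90 (adjusted p = 0.54), and with sums of at least 10 cells only it was 2.45 (adjusted p = 0.0405). The stellate clusters (#m7c and the capsular #m3c), the vitamin A storing cells of the sinusoid, also gave 0 of 5 by edgeR, by DESeq2 or at an unadjusted p under 0.05, where 2.23% were called (1.89% higher, 0.338% lower). Gja4 stood at 118 and 377 CPM in the male and female cells of #m7c (68 and 4 cells) and at 52.9 and 43.1 CPM in #m3c. Among their partners Cdh2, the cadherin of mesenchymal cells, was higher (3.43) and Cav1 lower (-4.20). For #m2c none of 11 partners was called by edgeR, with 3 at an unadjusted p under 0.05. DESeq2 called 2 of them, where it called 634 of 21329 genes.

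Among the fibroblast clusters with both pools, Gja1 was found in the cells annotated for Wt1 at 193 and 123 CPM in #m11c and 209 and 237 CPM in #m12c. In these clusters 43.4% and 41.7% of cells held at least 20 counts. Peribiliary fibroblasts (#m4c, 53.6 and 45.4 CPM) and second layer cells (#m5c, 36.1 and 71.8 CPM) were lower in both pools. In #m6c Gja1 was at 398 and 4.28 CPM, with 61.9% of the counts in 1 cell and at least 20 counts in 2 of 26 cells. The 6 mesothelial cells (#m16c) held 340 and 284 CPM.

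**Figure D4:**
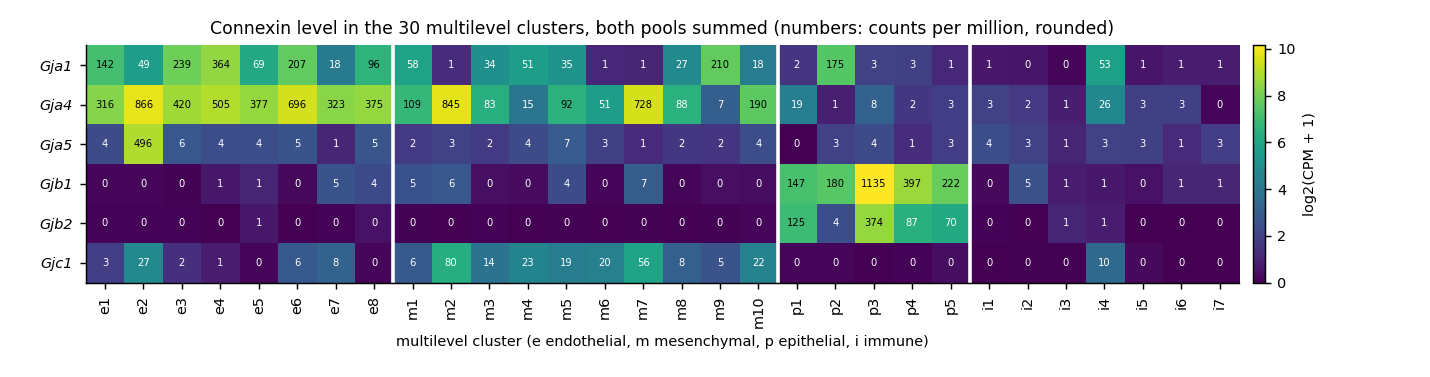
CPM (rounded, in the cells) and log2(CPM + 1) (colour) of the 6 connexins (rows) in the 30 multilevel clusters (columns, e endothelial, m mesenchymal, p epithelial, i immune), both pools summed. Gja4 runs through all endothelial clusters and into m2 and m7, Gja5 stands out in e2, and Gjb1 and Gjb2 in the p clusters.

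The epithelial class holds cholangiocytes (#p2) and 4 hepatocyte clusters. The labels matched their markers, with Krt19 at 493 CPM in #p2 and at most 0.313 CPM in the hepatocyte clusters. Alb was nevertheless counted at 3598 CPM in #p2, and its part in the connexin values there was not tested. Gjb1, the main hepatocyte connexin, lies on chrX:101376378-101385629 (GRCm38, plus strand) and was present in both cell types. It stood at 1135 CPM in #p3, 397 CPM in #p4, 222 CPM in #p5 and 148 CPM in #p1, and at 172 and 248 CPM in the male and female cholangiocytes. All 23 cells of #p3 held at least 20 counts, against 5 of 64 in #p1, where 49.4% of the counts lay in 1 cell.

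Gjb2, its partner in hepatocyte gap junctions, lies on chr14:57098600-57104702 (GRCm38, minus strand) and exceeded 5 CPM in the hepatocyte clusters alone among the 30 multilevel clusters. It held 374 CPM in #p3, 125 CPM in #p1, 87.2 CPM in #p4 and 70.1 CPM in #p5, against 4.85 and 1.12 CPM in the male and female cholangiocytes. Only 6 of 194 cholangiocytes had a Gjb2 count, and 42.5% of the counts lay in 1 cell. Of the hepatocytes 76 of 203 (37.4%) had a count, at a median depth of 166736 counts per cell against 302428 in the cholangiocytes. The lower share was thus found in the more deeply sequenced cells.

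Gja1 showed the opposite pattern in the epithelium. It stood at 189 and 55.0 CPM in the male and female cholangiocytes and at 1.25 to 2.88 CPM in the hepatocyte clusters. Across 5 plates with male cholangiocytes it ran from 49.0 to 251 CPM, a range that includes the female value. In the test, cholangiocytes exceeded the mean of the hepatocyte clusters in Gja1 (5.19 ± 0.83, edgeR adjusted p = 3.69e-05) and were lower in Gjb2 (-6.10 ± 0.92, adjusted p = 1.85e-05) and Gjb1 (-1.54 ± 0.60, adjusted p = 0.0486). These are 3 of 5 members where 37.3% of 16694 genes were called (28.6% higher, 8.67% lower), beside a median of 1.38 over all genes. The hepatocyte sums came from the male pool alone, so the spread rests on the pair of cholangiocyte sums and 1 residual degree of freedom, and with sums per plate only Gjb2 stayed called (Gja1 adjusted p = 0.0798, Gjb1 adjusted p = 0.154). Without the male cholangiocytes, which allows no test, the differences were 3.89 for Gja1 and -7.71 for Gjb2.

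Among the other junction genes 8 of 12 partners were higher in cholangiocytes and none lower, led by Cdh1 (9.30) and Ocln (8.99). The 1 pannexin tested, Panx1 (6.83), which forms ATP-releasing channels, was higher as well. Of 3 other connexins tested 2 were higher, among them Gja6 (9.22), which DESeq2 did not call (adjusted p = 0.12). Gja6 was counted in 3 of 194 cells of #p2, all female, and 97.4% of its counts there lay in 1 cell. Panx1 is named after its value was seen.

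Both hepatocyte zones were in the male pool, so their values stand side by side without a test. Periportal hepatocytes (#p4) had Hal at 1899 CPM and Cyp2e1 at 201 CPM, and pericentral hepatocytes (#p5) had Glul at 2365 CPM and Cyp2e1 at 2770 CPM. Gjb1 was at 397 CPM in #p4 and 222 CPM in #p5. At least 20 counts were found in 40 of 59 cells of #p4 (67.8%, interval 54.4 to 79.4%) and 19 of 57 cells of #p5 (33.3%, interval 21.4 to 47.1%). Gjb2 was at 87.2 and 70.1 CPM, and at least 20 counts were found in 30.5% (interval 19.2 to 43.9%) and 22.8% (12.7 to 35.8%) of these cells. The intervals cover counting error among the cells of 1 pool only and say nothing of the spread between animals, and reads without molecular identifiers are not independent molecules. Thinned to 50000 counts per cell, Gjb1 stood at 407 and 208 CPM.

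The Gjb2 upstream window is given for comparison with the endothelial members above (250 bases before the RefSeq start, GRCm38.p6 chr14:57104703-57104952, minus strand, matches in capitals). It holds GC boxes at 211 and, on the other strand, 126 bases before the start, and an E box at 9 bases, and its GC content was 69.2% against a median of 52.4% over all windows.
Gjb2: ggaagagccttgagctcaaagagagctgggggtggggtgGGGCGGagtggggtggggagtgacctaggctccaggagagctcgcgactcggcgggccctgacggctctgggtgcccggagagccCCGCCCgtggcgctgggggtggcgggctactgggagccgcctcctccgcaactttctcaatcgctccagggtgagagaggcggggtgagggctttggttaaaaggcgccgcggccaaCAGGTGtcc
Gjb1 has 4 RefSeq starts, of which the window of the fourth holds a TATA box (TATAAA, in 12.4% of all windows) at 29 bases. The windows of Gja1, Gja4 and Gja5 had GC contents of 50.0%, 61.2% and 56.4%. In all, 5 of the 6 members had a window.

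In the immune class single counts of Gja4 were common and high counts were not. At least 1 count was found in 165 of 651 cells (25.3%), but at least 20 counts in 3 cells (0.461%). In the epithelial class 21.7% of cells had a count and 0.756% had 20, at a median depth of 205585 counts per cell against 252531 in the immune cells. Among the immune clusters the share with a count ran from 3.66% (#i7) to 43.1% (#i2), at levels of 0.146 to 2.895 CPM outside #i4. All 3 immune cells with at least 20 Gja4 counts were "Cont" cells. In those 26 cells Gja4 stood at 2.56 and 75.3 CPM and Gja1 at 305 and 65.0 CPM in the male and female pools, beside the 4258 CPM of endothelial markers given above, and their part in the immune values was not tested.

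**Figure D5:**
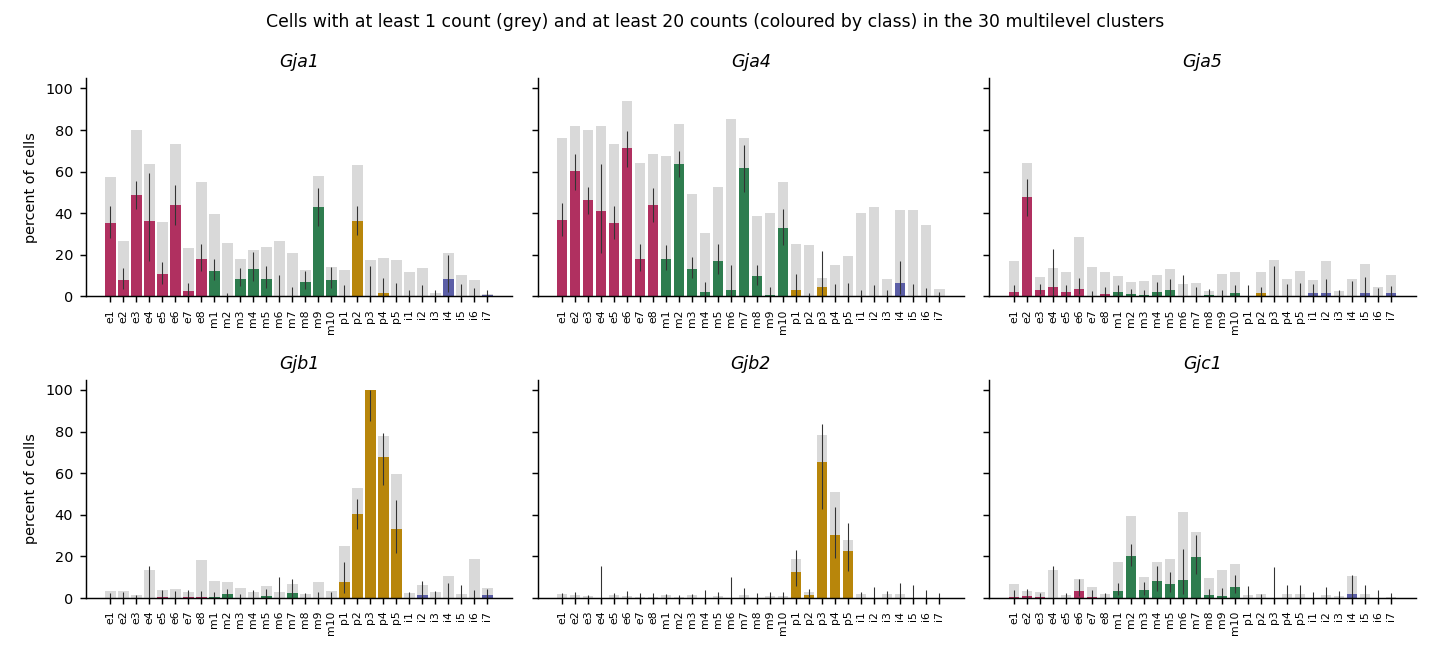
Percent of cells (y axis) with at least 1 count (grey bars) and at least 20 counts (coloured bars, with exact binomial 95% intervals) of each connexin in the 30 multilevel clusters (x axis). In immune clusters other than i4 Gja4 has grey bars without coloured ones, and Gja5 reaches 20 counts in 47.7% of the cells of e2 and in under 5% elsewhere.

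Compared per kilobase of exon, which allows levels of different genes to be set side by side, Gja4 was the leading member in endothelial (284 CPM per kb) and mesenchymal cells (148 CPM per kb), and Gjb1 in epithelial cells (145 CPM per kb). For the immune class no leading member is given, since 290 of its 537 Gja4 counts lay in the "Cont" cells. In the endothelium Gja1 followed with 14.1 and Gja5 with 11.4 CPM per kb, and in the epithelium, over both pools, Gjb2 with 19.9 and Gja1 with 10.9 CPM per kb. That last order rests on the male pool, since in the female pool Gjb2 (1.09 CPM) was below Gja1 (54.1 CPM) and stays so per length. The length used for Gja1 (10.257 kb of exon union against 3.889 kb for its longest transcript) lowers its value most. With the longest transcript in place of the exon union the leading gene of these 3 classes was the same, but Gja1 then stood at 28.8 CPM per kb in the epithelium, above Gjb2 (19.9), and at 37.3 CPM per kb in the endothelium.

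At least 20 counts of 2 or more members were found in 344 cells (9.85% of all cells), and at least 1 count in 1330 cells (38.1%). In #e2, 42 cells held at least 20 counts of both Gja4 and Gja5, which is 54.5% of 77 cells with Gja4 and 68.9% of 61 cells with Gja5, beside 47.7% of all cells of #e2 with Gja5 and 60.2% with Gja4. In #p2, 34 cells held both Gja1 and Gjb1 (48.6% of 70 and 43.6% of 78), beside 40.2% of all cells of #p2 with Gjb1 and 36.1% with Gja1. In #m2, 34 of 48 cells with Gjc1 (70.8%) also held Gja4, beside 63.7% of all its cells. These are counts within clusters and were not tested.

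Among the remaining 14 connexins, Gjd3 reached 43.8 CPM in #m8, a fibroblast cluster with male cells only. Gjb5 reached 6.79 and 45.7 CPM in #m9, with a count in 5.04% of its 119 cells. Gja3 and Gjd2 had no count in any cell. Among the pannexins, Panx1 reached 115 CPM in #i5, the B cells, where 13.8% of 58 cells, all male, had a count. It reached at least 10 CPM in 14 clusters, and Panx3 had no count.

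Over the 30 multilevel clusters the genes most like each member in log2(CPM + 1), out of 13455 compared, were Fscn1 (Pearson's r = 0.862) for Gja1, Dock6 (0.906) for Gja4, Gm26578 (0.767), Nrg1 (0.761) and Cyp1a1 (0.754) for Gja5, Ugt2b34 (0.954) and Serpina10 (0.945) for Gjb1, Ces1e (0.990) and Cyp4a12a (0.984) for Gjb2, and Arhgef25 (0.862) and Ntf3 (0.861) for Gjc1. Next for Gja1 were Gm17035 (0.849) and Plekhg1 (0.837), for Gja4 Atp2b4 (0.900) and Sema3f (0.889), for Gjb2 Gm8893 (0.983) and for Gjc1 Epha4 (0.855). Among the members themselves the closest pairs were Gjb1 and Gjb2 (r = 0.91) and Gja4 and Gjc1 (r = 0.60). Clusters share plates and pools, so these values are descriptions.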

How the data were processed

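Livers were profiled by Smart-seq2, and 8 samples (4 classes, male and female) were grouped by their labels. The authors deposited raw read counts per gene and cell, with cell annotations and clusters. The submitters' processing notes name bcl2fastq, Bowtie, Bowtie2, Subread, featureCounts and Seurat and the builds GRCm38 and mm10. The 92 ERCC spike-in rows (1.95% of counts) were left out. Counts were summed per pool and class or cluster (at least 5 cells) and tested in edgeR 4.0.16 (quasi-likelihood, TMM, filterByExpr, Benjamini-Hochberg over all genes tested, R 4.3.3). Levels (CPM) were relative to all gene counts of the cells summed, and lengths came from GENCODE on GRCm38. Shares carry exact binomial 95% intervals. The fit was tested on simulated data.

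The members and gene lists were chosen with earlier results of these data known. All 6 members are named in every comparison, other connexins and pannexins from 10 CPM in a cluster, and up to 3 called genes of the fixed list per comparison with the largest absolute change. For likeness, the 3 genes with the highest correlation over clusters are named. Alternatives were DESeq2 1.42.0, RLE size factors, no filter, a replicate block, thinning to 50000 counts per cell, sums per plate, at least 10 cells per sum, other cluster groupings and leaving out each pool. Upstream windows came from RefSeq (GRCm38.p6). Values of some genes on these lists are not reported here.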

Additional observations from a re-analysis of the deposited data

Results flagged for a closer look

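In the portal vein cluster #e2, Gjc1 moved in opposite directions in the pools: its log2(CPM + 1) differed from the mean of the other endothelial clusters by -1.03 in the male and 4.53 in the female pool. The difference between the pools was not tested. Of the Gjc1 counts in #e2, 99.7% came from 1 cell, which lies in the peribiliary cluster #e5c.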

How the results depend on the processing

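With each pool left out in turn, the number of members called was 2 to 4 for the endothelial, 1 to 2 for the mesenchymal and 2 to 4 for the epithelial class, and 0 for #e4 without its male or its female sum. DESeq2 called 4 members for the mesenchymal, 6 for the epithelial and 4 for the immune class, 3 for the mural clusters and 1 for the sinusoidal group. In the same order it called 4292, 5601 and 5655 of 24046 genes, 1633 of 21329 and 1446 of 18321. Without the filter on low counts, 5 were called for the epithelial class, 2 for #e2 and 1 for the sinusoidal group. Over all genes this setting called 5066 of 34614, 1102 of 29266 and 699 of 29266. Across the comparisons, 1 member call of the main setting was lost without the filter and 1 with thinning. Thinning gave 5 for the epithelial class (3018 of 19677 genes called) and 1 for the sinusoidal group (453 of 14901), and a Gjb1 level of 208 CPM in #p5. Sums per plate gave 1 for the sinusoidal group (228 of 18129 genes called) and 0 for #e4 (574 of 18129). They gave 1 for #p2 (1228 of 15433) and 1 for the mural clusters (403 of 19437). With at least 10 cells per sum, 1 was called for the sinusoidal group (641 of 20480 genes called) and 1 for #m2c (294 of 21731). Taking #e2c in place of #e2, chosen after seeing the data, gave 2, where 259 of 17793 genes were called. The Gja1 call among these was built in by that choice. Cells with 2 or more members numbered 344 at 20 counts. No called direction reversed, and the cause of these shifts was not tested.

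Pools of the same number are of the same sex and can share plates, but the labels name no shared animals. Deviations of clusters of the same pool correlated at -0.02 to 0.09 in the endothelium and 0.01 to 0.16 in the mesenchyme. With a replicate block, 4 members were called for the epithelial class, with Gja1 added (1.38, edgeR adjusted p = 0.04), and 3 for the mural clusters, with Gjc1 added (2.91, adjusted p = 0.0473). All other member calls were as without the block, except that the epithelial clusters left no residual degrees of freedom and gave no test. Over all genes the block gave 211 calls in place of 354 for #e2 and 796 in place of 1245 for #e4. It gave 2728 in place of 2987 for the epithelial class and 623 in place of 714 for the mural clusters.

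Over all genes and alternatives, the calls ranged from 606 to 4497 for the endothelial, 1528 to 4761 for the mesenchymal, 1933 to 5601 for the epithelial and 1847 to 5655 for the immune class. They ranged from 211 to 1102 for #e2, 160 to 998 for #e1, 62 to 1446 for the sinusoidal group, 574 to 3073 for #e4, 1228 to 7127 for #p2, 403 to 1633 for the mural clusters, 53 to 634 for #m2c and 335 to 1151 for the stellate clusters.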
